A study of Mus musculus with 3 samples.

Results

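The region described here is a 20 Mb block in the middle of mouse chromosome 8, taken from a list of c-FOS binding sites in a basal cell carcinoma line. Its members are the listed peaks whose start lies from 70000000 to 89999999 on mm9 (genome coordinates below are 1-based on that build). They number 336 of the 1405 peaks on chromosome 8 and of the 15011 in the whole list. The block was chosen by the number of listed peaks in it, so its density is given below as a description and without a test.

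The list comes from chromatin immunoprecipitation followed by sequencing (ChIP-seq), in which DNA bound by a protein is pulled down with an antibody and read. The cells were ASZ001, a murine basal cell carcinoma line, of genotype RasV12_TGFbR1kd, which combines an activated Ras with a knockdown of the TGF-beta receptor TGFbR1 by shRNA. All were given Dox and 4OHT (treatment label Dox-4OHT) and collected 6 days later, in a model of the passage from basal to squamous cell carcinoma. The c-FOS group has 2 samples, precipitated with the rabbit monoclonal antibody 9F6, and the input group has 1 sample without antibody. Genotype, drugs and day are the same in all 3 samples, and a group without induction was not analysed here. The peaks stand in 1 list that names no replicate and gives no height or score. The depth behind a peak is therefore unknown, and the spread between the ChIP samples could not be given for any value.

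c-FOS is a subunit of AP-1, a transcription factor that forms when a FOS protein pairs with a JUN protein through a leucine zipper. AP-1 sits mostly at enhancers, responds to Ras signalling through the MAP kinase cascade, and is a long-studied regulator of keratinocyte growth and squamous differentiation. Mouse chromosome 8 carries the genes of 2 JUN proteins, Jund and Junb. In the RefSeq table of GRCm38, Jund lies between Lsm4 and Iqcn, and Junb lies between Prdx2, a peroxide-reducing enzyme, and Hook2. That table follows a later build than the peaks, so neither gene was placed inside or outside the block, and neither genes nor sequences were matched to the peaks.

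The block held 16.8 peaks per Mb against 9.57 per Mb over the other 112 Mb of the chromosome, a ratio of 1.76 (1.55 to 1.98 from the Wilson 95% interval of its share of peaks). It took 23.9% of the chromosome 8 peaks (Wilson 95% interval 21.8 to 26.2%) on 15.2% of the length. The flanks of the block differed from each other. Below it, the first 70 Mb of the chromosome held 426 peaks or 6.09 per Mb, and the block was 2.76 times as dense. Above it, the last 41.7 Mb held 643 peaks or 15.4 per Mb, and the block was 1.09 times as dense. All Wilson intervals here reflect counting error alone; they take peaks as independent, although peaks lie in clusters.

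The block was not the densest part of chromosome 8. Of the 112 stretches of 20 Mb that start on a whole Mb of the chromosome, 9 held more peaks than the block. Among them, 2 were the block moved up by a few Mb, and the others lay at the far end of the chromosome. The fullest, chr8:111000001-131000000, held 423 peaks or 21.2 per Mb, 1.26 times the count of the block. In the whole list, 84 of 2249 such stretches (3.73%) held more peaks than the block, and the median stretch held 88. On a fixed grid of 20 Mb, the 5 fullest blocks of the genome were chr11:100000001-120000000 with 609 peaks, chr5:120000001-140000000 with 482, the first 20 Mb of chromosome 19 with 366, chr11:80000001-100000000 with 352 and chr11:60000001-80000000 with 350, each above the 336 of the block.

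**Figure D1:**
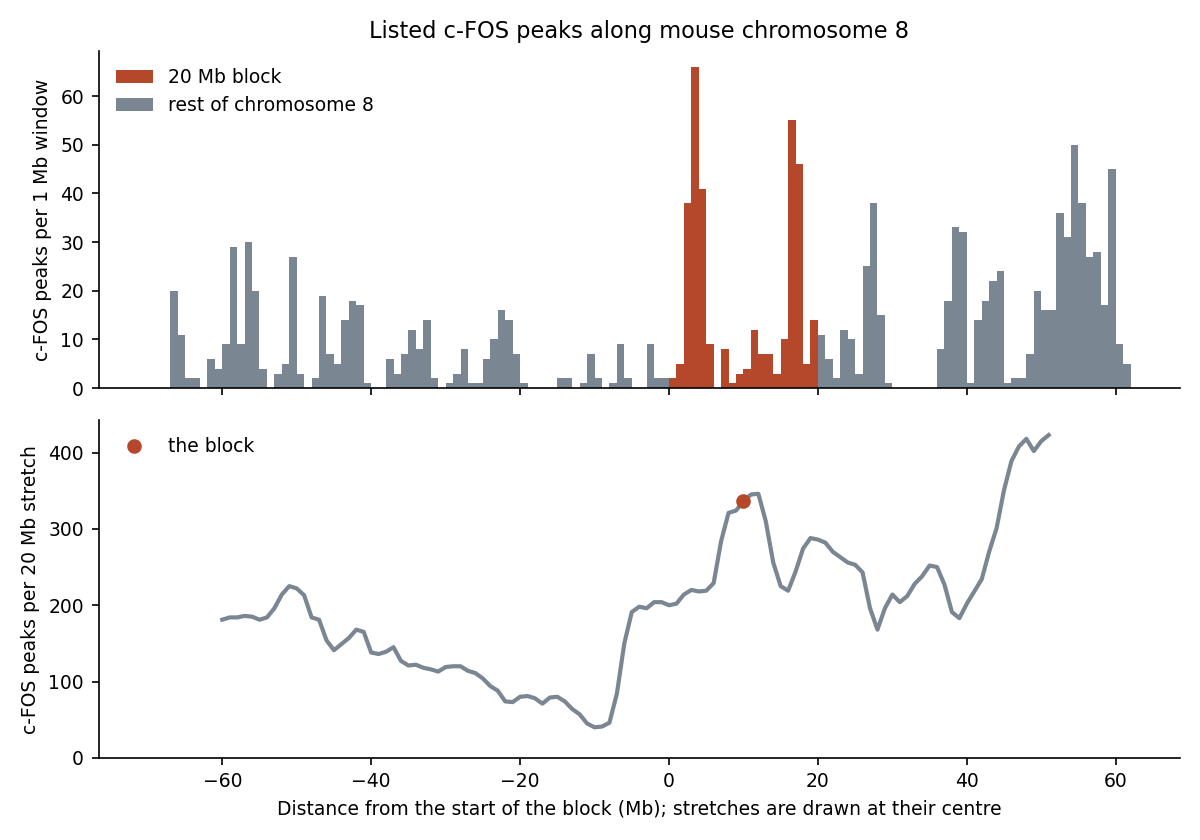
Listed c-FOS peaks along chromosome 8, with distance from the start of the block in Mb on the x axis. The upper panel gives peaks per 1 Mb window, with the block in red, and the lower panel gives the count in every 20 Mb stretch at its centre. The block reaches 66 peaks in its fullest window, and the fullest 20 Mb stretch (423 peaks) lies at the far end of the chromosome.

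Within the block the peaks lay in 2 short runs separated by a sparse interval, so "dense block" describes its sum and not its whole length. The fullest window of 1 Mb, chr8:73000001-74000000, held 66 peaks. The next were chr8:86000001-87000000 with 55 peaks and chr8:87000001-88000000 with 46. The windows chr8:74000001-75000000 and chr8:72000001-73000000 followed with 41 and 38 peaks. These 5 windows held 246 peaks, or 73.2% of the block, while the other 15 windows held 90 peaks, at most 14 each. The median window of the block held 7.5 peaks (quartiles 3.75 and 20), against 6 peaks (quartiles 1 and 15.5) for the 111 whole windows elsewhere on the chromosome.

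The 5 full windows join into a run of 3 Mb and a run of 2 Mb, whose limits were drawn after their counts were seen. The first run, chr8:72000001-75000000, held 145 peaks or 48.3 per Mb. The second run, chr8:86000001-88000000, held 101 peaks or 50.5 per Mb. The 11 Mb between them held 64 peaks or 5.82 per Mb. The 2 Mb before the first run held 7 peaks, and the 2 Mb after the second run held 19. Outside both runs the block had 6 peaks per Mb, 0.627 times the density of the rest of chromosome 8. The runs were picked for their counts, so this lower value follows in part from the choice.

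The fullest bins were in the second run. Of the 30 bins of 100 kb in the first run, 26 held a peak and none held more than 12. Of the 20 bins in the second run, 17 held a peak, and chr8:86700001-86800000 and chr8:87500001-87600000 alone held 20 and 19. A like share of bins was thus filled in each run, and the counts of the second run were highest in a pair of narrow spikes 800 kb apart. The first peak inside the first run lay 244 kb from the peak before it, and the first inside the second run 124 kb. After the last peak of the first run the next lay 17.4 kb away, and after the last of the second 59.5 kb away. The longest empty stretch inside a run was 314 kb in the first and 325 kb in the second.

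**Figure D2:**
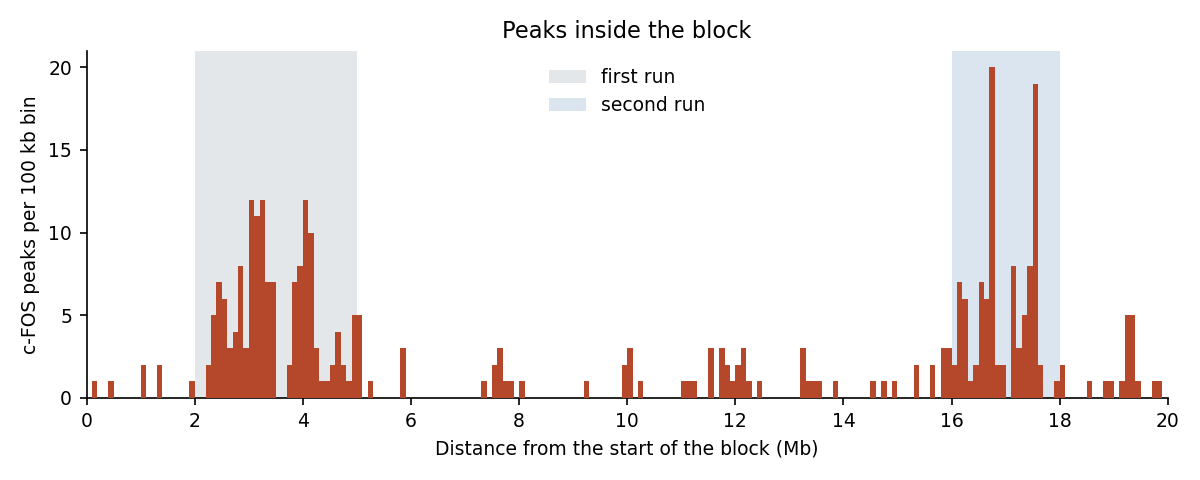
c-FOS peaks in each 100 kb bin of the block, with distance from the start of the block in Mb on the x axis and the runs shaded. The first run has up to 12 peaks in a bin, and the second run has bins of 20 and 19 peaks.

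The emptiest windows lay outside the runs, most of them in the interval between. No peak was listed from 76000001 to 77000000, the only empty window of the 20, whereas 23 of the 111 other whole windows of the chromosome (20.7%) were empty. The windows starting at 78000001, 70000001, 79000001 and 84000001 held 1, 2, 3 and 3 peaks. The longest stretch without a peak ran over 1.50 Mb, from 75877777 to 77378699. The next measured 1.13 Mb (78084603 to 79217552) and 0.800 Mb (80232434 to 81032565). Elsewhere on the chromosome the longest was 6.91 Mb, from 99867235 to 106774618.

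The edges of the block fell in thinly filled sequence. The last 3 peaks below the lower edge started at 68953973, 69010265 and 69506262, and the first 3 inside it at 70100888, 70460980 and 71080839. The last 3 inside the upper edge started at 89408638, 89746579 and 89857263, and the first 3 above it at 90426631, 90642594 and 90722737. Gaps of 595 kb at the lower and 569 kb at the upper edge separated members from non-members.

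Few stretches with a like number of peaks were as concentrated in a few windows, which is given as a description of this list. Elsewhere 158 stretches of 20 Mb, many of them overlapping, on 10 chromosomes had a count within 25% of that of the block (252 to 418 peaks). In these the 5 fullest windows held a median of 53.6% of the peaks (41.6 to 73.9%), and 1 of the 158 passed the 73.2% of the block. A fixed grid of 20 Mb gave 9 blocks with a like count that overlap neither each other nor the block. Among them the share ran from 44.8 to 71.3%. The highest of these was the first 20 Mb of chromosome 19, with 366 peaks.

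Peak width, which the choice of the block did not use, was close to that of the rest of the chromosome. Members had a median width of 163 bp (95% interval from order statistics 155 to 178) with quartiles of 125 and 231 bp, against 153 bp (148 to 161) with quartiles of 117 and 224 bp in the rest. The difference of 10 bp was not tested, and the intervals of the medians overlapped. All other chromosomes had a median of 159 bp. The narrowest width in the list, 98 bp, was that of 36 members or 10.7% (Wilson 95% interval 7.84 to 14.5%), beside 10.6% of the rest of chromosome 8 and 10.8% of all other chromosomes. Peaks over 500 bp numbered 6, or 1.79% (0.821 to 3.84%), beside 1.50% and 1.77%. Together the members covered 66.2 kb, or 0.331% of the block, against 0.177% of the rest of the chromosome.

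Inside the block, median width differed little between full and sparse parts of more than 20 peaks. The median was 164 bp in the first run (145 peaks), 163 bp in the second (101 peaks) and 166.5 bp between them (64 peaks). It was 118 bp in the 7 peaks before the first run and 189 bp in the 19 after the second. Of the 10 widest members, 3 lay in the first run, 3 in the second and 4 outside both. The runs held 73.2% of all members. The widest, chr8:89408638-89409357, measured 720 bp, stood alone with its nearest neighbour 28.2 kb away, and ranked 42nd in the whole list. The next, chr8:73222635-73223349, measured 715 bp and belonged to a group of 4 close peaks in the first run that also held the seventh widest, chr8:73223538-73224037 (500 bp). The third and the fourth, chr8:83403489-83404082 (594 bp) and chr8:81032566-81033153 (588 bp), lay in the sparse interval, with no other peak within 10 kb.

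In the second run, the fifth widest member, chr8:87509460-87510031 (572 bp), had 11 other peaks within 10 kb. The sixth, chr8:86727209-86727770 (562 bp), had 13. The last 3 of the 10 were chr8:87560378-87560872 (495 bp), chr8:72566478-72566969 (492 bp) and chr8:85689542-85690030 (489 bp). Wide peaks thus stood both in the full and in the thin parts of the block. Of the 10, 6 had another peak within 10 kb and 4 had none, beside 65.8% of all members with such a neighbour.

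Neighbouring members lay close together. The median gap between them was 11.7 kb (95% interval from order statistics 8.89 to 14.1 kb), with quartiles of 1.35 and 37.5 kb. On the rest of the chromosome it was 24.4 kb (20.8 to 26.9 kb). A neighbour within 1 kb was found for 126 members, or 37.5% (Wilson 95% interval 32.5 to 42.8%), beside 26.3% (23.7 to 29.0%) on the rest of chromosome 8 and 24.4% on all other chromosomes. Within 10 kb the shares were 65.8%, 53.7% and 47.9%. A fuller region brings peaks closer together by itself, so these shares move with the density that chose the block. The part of density in them was not tested.

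**Figure D3:**
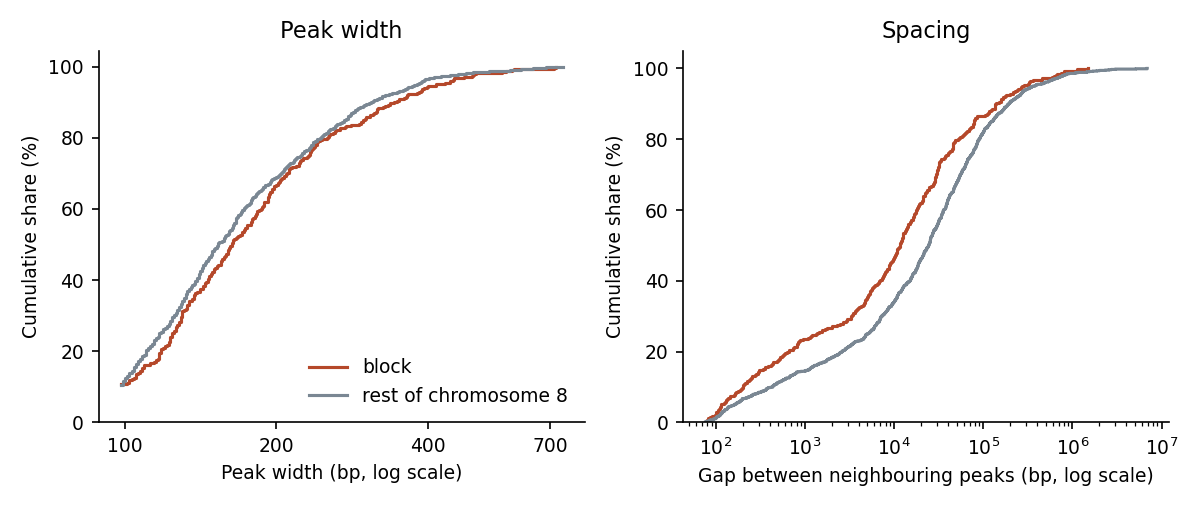
Cumulative share of peaks by width (left) and of gaps between neighbouring peaks by length (right), both on log axes in bp, for the 336 members (red) and the 1069 other peaks of chromosome 8 (grey). The width curves lie close together (medians 163 and 153 bp), and the gap curve of the block lies to the left (medians 11.7 and 24.4 kb).

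Regions that were as full give a nearer comparison. Of the 9 grid blocks with a like count, 8 had a lower share of peaks with a neighbour within 1 kb than the block, from 21.6 to 30.1%. The first 20 Mb of chromosome 19 had a higher share, 44.3% (39.3 to 49.4%). Left out of the 9 was chr8:80000001-100000000 (286 peaks), which overlaps the block and holds its second run. Its share was 38.8% (33.3 to 44.6%). The block itself does not follow the grid. The 9 grid blocks match the block in count and not in concentration. Their 5 fullest windows held 44.8 to 71.3% of their peaks, highest on chromosome 19, against 73.2% in the block. The fullest 20 Mb of chromosome 8 itself, with 423 peaks, had a share of 27.2% (23.2 to 31.6%) and a median gap of 16.3 kb. In single windows of 1 Mb, the shares in the 5 full windows of the block ran from 31.7 to 58.7% with a median of 47.3%. The 36 windows elsewhere that held 38 to 66 peaks ran from 8 to 60% with a median of 34.8%, and 4 of them passed the median of the 5.

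**Figure D4:**
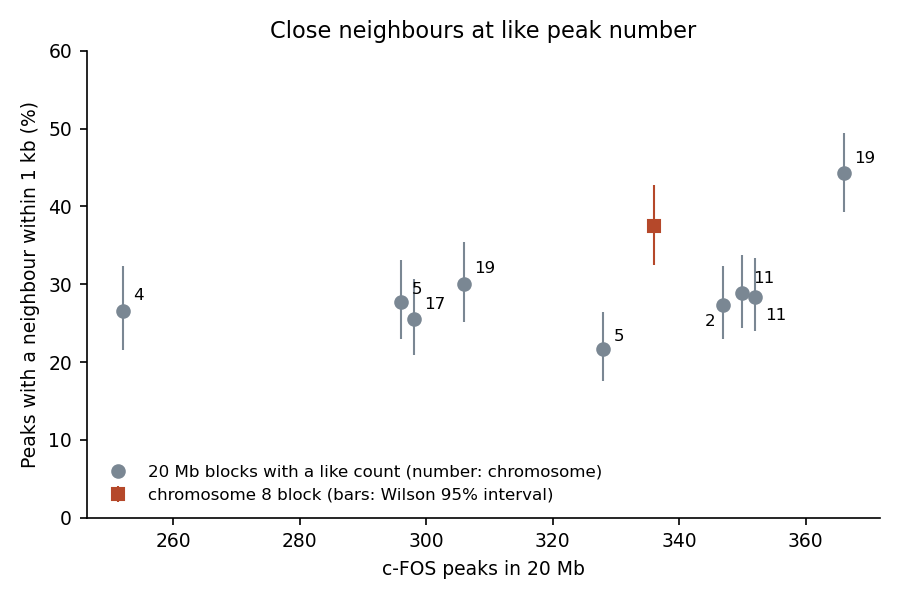
Share of peaks with a neighbour within 1 kb against the number of peaks. The block is the red square. Grey points, labelled by chromosome, are the 9 grid blocks of 20 Mb with a like count that do not overlap it. Bars are Wilson 95% intervals. The block stands at 37.5%, above 8 of the 9 and below the chromosome 19 block at 44.3%.

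Most of the close neighbours were in the runs, with 109 of the 126 members concerned. In the first run 38.6% of peaks had a neighbour within 1 kb (Wilson 95% interval 31.1 to 46.7%) and in the second 52.5% (42.8 to 61.9%). Between the runs the share was 12.5% (6.47 to 22.8%, 8 of 64 peaks). It was 26.3% after the second run (5 of 19 peaks) and 57.1% before the first (4 of 7 peaks, interval 25.05 to 84.18%). Among the 5 full windows the highest share was in chr8:87000001-88000000, with 27 of its 46 peaks. No peak in either run was more than 100 kb from its nearest neighbour, while 21 members outside the runs were, 12 of them in the interval between. Since the runs were picked for their counts, these differences between runs and sparse parts follow in part from the choice. The intervals of the runs overlapped, and whether the runs differ was not tested.

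Linked by gaps of at most 1 kb, the members formed 31 pairs, 9 groups of 3, 4 groups of 4 and 3 larger groups, and 210 stood alone. Groups of 3 or more held 64 members, or 19.0%, against 69 peaks or 6.45% on the rest of chromosome 8. These shares, too, move with the density that chose the block. The first 20 Mb of chromosome 19, with 366 peaks, held 18 such groups beside 16 in the block. The other grid blocks with a count within 25% of that of the block, and not overlapping it, held 4 to 9. The grid block chr8:80000001-100000000 (286 peaks), which overlaps the block and holds its second run, had 12. The whole list had 28 groups of 5 or more. Of the 4 on chromosome 8, 3 lay in the block, all within the runs.

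The largest group, chr8:86721266-86727770, held 10 peaks in 6505 bp, the most of any group in the list, and was in the second run. Its peaks were 155 to 562 bp wide with a median of 224 bp, above the 163 bp of all members, and covered 43.6% of its length. The gaps between them were 81 to 822 bp with a median of 301 bp. None of its peaks had the floor width of 98 bp. The last peak in the group was the widest, at 562 bp, followed by the fifth (442 bp) and the sixth (393 bp).

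A group of 6 peaks, chr8:74102849-74105445, lay in the first run and spanned 2597 bp. Its peaks were narrower, with a median of 127.5 bp, and 2 of them had the floor width. Its widest peak, chr8:74103352-74103710, measured 359 bp, and its gaps ran from 100 to 633 bp. A group of 5, chr8:87501138-87503813, lay in the second run and spanned 2676 bp. It opened with its widest peak, chr8:87501138-87501538 (401 bp), and the other widths ran from 121 to 175 bp. Median width thus differed, at 224 bp in the largest group and 127.5 bp in the group of 6. The shares of their length covered by peaks were closer, at 43.6 and 39.9%, and their widths overlapped.

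**Figure D5:**
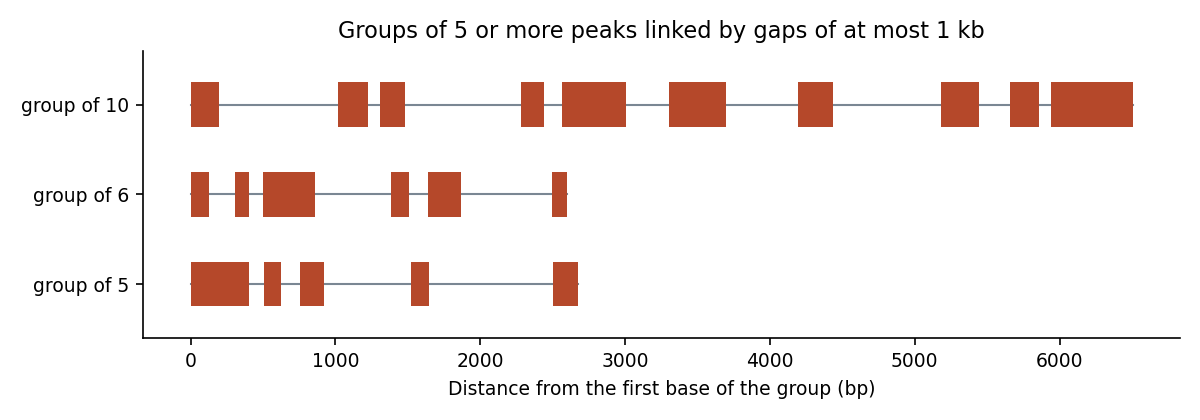
The 3 groups of 5 or more peaks in the block, each drawn to scale as boxes at their distance in bp from the first base of the group. The group of 10 spans 6505 bp with peaks of up to 562 bp, and the groups of 6 and 5 span 2597 and 2676 bp.

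At a distance of 10 kb the groups grew into longer regions. The members formed 180 such regions, of which 115 held a single peak, and 4 held 8 or more. The group of 10 became part of chr8:86705086-86735541, with 18 peaks in 30.5 kb. The group of 5 became part of chr8:87489687-87515161, with 16 peaks in 25.5 kb. In the first run, chr8:74088001-74105445 held 10 peaks in 17.4 kb and chr8:73890728-73908788 held 8 peaks in 18.1 kb. The pair of regions in the second run held 34 of its 101 peaks (33.7%). The region of 18 peaks lies inside the bin of 20 peaks. The region of 16 peaks starts before the bin of 19 peaks and ends inside it.

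Members with a neighbour within 1 kb had somewhat wider peaks. Their median width was 169.5 bp (126 peaks) against 161.5 bp (210 peaks), and 7.14% of them had the floor width against 12.9% of the others. On the rest of chromosome 8 the medians were 166 and 149 bp and the floor shares 5.69% and 12.3%. The direction was the same on both sides of the comparison, and neither difference was tested, because peaks of 1 list are not replicates.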

How the data were processed

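Reads were aligned with Bowtie2 to mm9 and peaks called with MACS2, per the submitters' processing notes; versions, threshold, use of the input and any pooling of the 2 ChIP samples: not given in the sources used here. What the authors deposited is 1 list of intervals (chromosome, start, end) and no other value. All intervals fit within mm9, and 55 lay past the end of an mm10 chromosome (lengths from GenomeInfoDb 1.38.1, R 4.3.3). Peaks were assigned by their start. Widths, gaps, windows of 1 Mb and stretches of 20 Mb were computed in Python 3.11.15 with pandas 2.3.3, scipy 1.17.1 and numpy 2.4.6, and drawn with matplotlib 3.10.9. The code was tested on simulated lists with a planted block. Assembled lengths were used, gaps and unmappable sequence included, with no filter for artefact regions. No test was run: there is 1 list, its members were chosen by density on it, and peaks are not replicates. The members and lists were chosen with earlier results of these data known. Named regions follow a rule: the 10 widest members, the 5 fullest and 5 emptiest windows, groups of 5 or more peaks within 1 kb, the 3 longest empty stretches, the 3 peaks at each side of the edges and, for comparison, the 5 fullest grid blocks. The runs, the 100 kb bins, the 10 kb regions, the overlapping 20 Mb stretches and the full windows elsewhere were added after the counts were seen.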

Additional observations from a re-analysis of the deposited data

How the results depend on the processing

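Of 59 alternative values for 7 results, 37 stayed within the counting interval of the value reported, 21 left it and 1 changed direction. The density ratio to the rest of chromosome 8 (1.76) depended on the limits of the block: it was 2.05 with both edges 2 Mb inward, 1.53 with both 2 Mb outward, 1.03 with the block moved 5 Mb down, which puts the second run outside, and 1.07 with it moved 5 Mb up, which puts the first run outside. Merging peaks within 10 kb gave 1.42. Leaving out the first run, the second or both, alternatives added after the data were seen, gave 1.17, 1.36 and 0.627, lower by construction since the runs were picked for their counts. The median gap (11.7 kb) became 19.1 kb with peaks within 1000 bp merged, 14.2 kb without the densest window, and 16.1, 14.3 and 55.2 kb without the first run, the second and both. The share with a neighbour within 1 kb (37.5%) was 0% after merging, by construction, 31.1% without the second run and 18.9% without both. The share within 10 kb (65.8%) was 46.7% after merging, and 58.6, 58.3 and 31.1% without the first run, the second and both. The share of peaks over 500 bp (1.79%) was 16.0% after merging, which counts the gaps inside a merged group as width. The share of floor-width peaks (10.7%) was 7.78% without both runs. The width difference kept its sign, between 8 and 19 bp, the latter after merging. Its interval, 2 to 25 bp, took the counting error of the block median alone and held the median of the rest fixed. The motif analysis was not run without an mm9 sequence, no replicate could be left out of a single list, and the unknown depth limits every count.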

Other observations

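At the scale of 100 kb, with empty bins counted, the members were about as concentrated as the other peaks of the chromosome. The fullest 17 of the 200 bins in the block (8.5%) held 50% of its peaks, and on the rest of chromosome 8 it took 94 of 1117 bins (8.42%). A peak was found in 94 bins of the block (47%) and in 410 of those elsewhere (36.7%). Among bins with a peak, 50% of peaks thus took 17 of 94 in the block and 94 of 410 elsewhere, a smaller share in the block. The fullest bin held 20 peaks in the block and 15 outside it.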
